A study of Mus musculus with 6 samples.

Results

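Transcripts of 8 genes of the CC chemokine system were followed in whole aortic arches of atherosclerosis-prone mice with and without an inducible deletion of Rbpj. The 8 are the ligand genes Ccl2, Ccl5, Ccl6, Ccl7, Ccl8 and Ccl9 and the receptor genes Ccr1 and Ccr2. They were taken by gene symbol from a table of 14298 genes, and all 8 were present and passed the filter on low values. The knockout group was 3 libraries of ApoE-/-;RBPJflox/flox;Cdh5-CreERT mice, in which tamoxifen activates a recombinase driven by the promoter of the endothelial cadherin gene. The control group was 3 libraries of ApoE-/-;RBPJflox/flox mice without the recombinase, so both groups lacked apolipoprotein E and carried the floxed alleles. Both groups were adult C57/BL6 mice that received tamoxifen for 1 week at 8 weeks of age and then a high-fat diet for 6 weeks. Recombinase and deletion therefore go together in the knockout group and cannot be told apart, and the deletion is limited to cells in which the Cdh5 promoter is active. PolyA RNA of the arch was sequenced, with a stated RNA integrity of at least 7.9.

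CC chemokines are small secreted proteins named for a pair of adjacent cysteines near their amino terminus. They bind to the glycosaminoglycans of the endothelium and the matrix and activate receptors coupled to Gi proteins on leukocytes, which then arrest on and cross the vessel wall. CCL2 and CCL7 act through CCR2, the receptor by which classical monocytes leave the bone marrow and enter atherosclerotic plaques. CCR1 is a receptor of CCL5, CCL6, CCL7 and CCL9 on monocytes, macrophages and neutrophils.

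The cysteine pair that names the family was read from the reference transcripts of the 6 ligand genes (GENCODE M21, GRCm38). Each stretch below has 30 bases of coding sequence, and the capitals mark the adjacent cysteine codons. All of them lie on chromosome 11, within a single exon, and on the strand of the gene.
Ccl2, chr11:82036500-82036529, + strand: ctcaccTGCTGCtactcattcaccagcaag
Ccl7, chr11:82046532-82046561, + strand: tccacaTGCTGCtatgtcaagaaacaaaag
Ccl8, chr11:82116050-82116079, + strand: gtcaccTGCTGCtttcatgtactaaagctg
Ccl5, chr11:83529224-83529253, - strand: actcccTGCTGCtttgcctacctctccctc
Ccl9, chr11:83575908-83575937, - strand: tcagatTGCTGCctgtcctataactcacgg
Ccl6, chr11:83589368-83589397, - strand: tcagacTGCTGCttctcttatgccacacag
The codons of the pair were written with the same letters in all 6 genes, while the flanking bases differed. The longest exact run that the coding sequence of a ligand gene shared with any other CC chemokine or receptor gene compared was 23 bases, between Ccl6 and Ccl9, and 13 bases for Ccl5. Not every related gene was compared here, so how far counting could split reads between near-identical stretches of the receptor genes is not given.

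The deposited values are read counts scaled for library size (normalised CPM), and each is given below per library, with libraries named by the number in the table (knockout S595, S598 and S599, control S591, S592 and S594). A fold change is given as the difference in mean log2(value + 1) of knockout and control libraries, and the added 1 shrinks it for low genes. Fold changes were tested with limma over all 14298 genes, with Benjamini-Hochberg adjustment and a threshold of 0.05. The libraries held between 5904504 and 10072495 reads over the listed genes. Smooth muscle markers, which define the arch wall, summed to between 20870 and 29039 CPM in the knockout and between 11950 and 20765 CPM in the control libraries. The targeted gene did not differ detectably in whole-arch RNA, at 193 ± 21.7 CPM in the knockout and 189 ± 13.2 CPM in the control libraries (SD, n = 3 each, limma adjusted p = 0.923), and a value from whole tissue does not check a deletion in the endothelium. In bulk RNA, fewer cells of a type and less RNA per cell cannot be told apart.

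Of the 8 genes, 7 stood lower in the knockout arches by limma at an unadjusted p under 0.05, against 12.0% of all genes tested, and 0 stood higher, against 8.04%. All 8 had a negative log2 fold change, as did 52.2% of all genes. None of the 8 passed the adjusted threshold, which 0% of all genes passed in the lower and 0.0210% in the higher direction. The 3 knockout values lay below the 3 control values for 6 of the 8 genes (Ccl2, Ccl6, Ccl7, Ccl9, Ccr1 and Ccr2), as they did for 14.2% of all genes, and for 0 of the 8 did they lie above them, against 11.3% of all genes. The median log2 fold change of the 8 was −1.17, and that of all genes −0.02. A log2 fold change of −1 or less was found for 5 of the 8 (Ccl2, Ccl6, Ccl7, Ccl9 and Ccr1), against 2.50% of all genes. The 8 genes were chosen with earlier results of these libraries known, so these counts describe them and are not independent evidence.

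**Figure D1:**
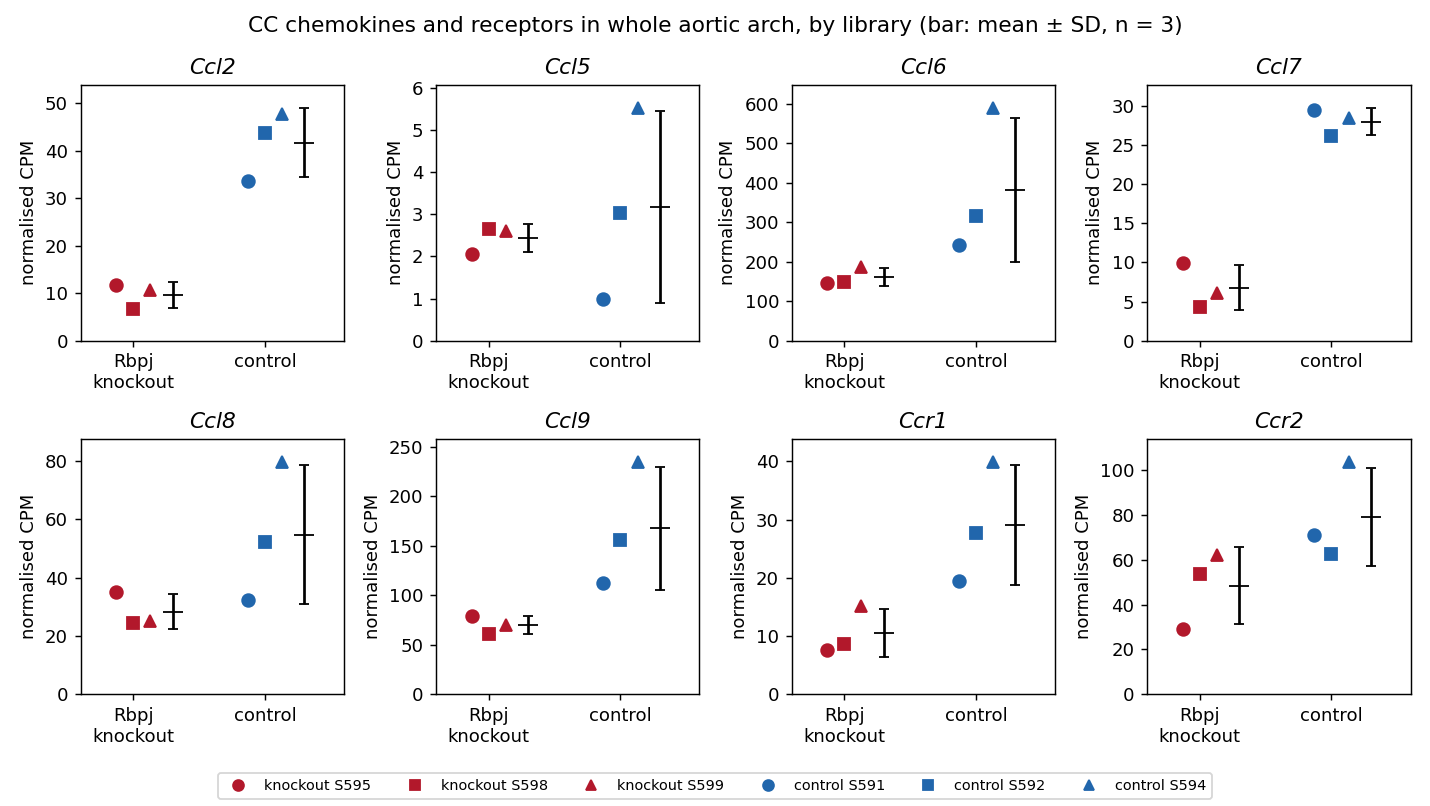
Normalised CPM (vertical axes, starting at 0) of the 8 genes in each library, with knockout libraries in red to the left and control libraries in blue to the right. Bars give the mean ± SD of 3 libraries, and the symbols of the groups do not overlap for Ccl2, Ccl6, Ccl7, Ccl9, Ccr1 and Ccr2, while they overlap for Ccl5 and Ccl8.

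Ccl2, the main ligand of CCR2, read 11.6, 6.60 and 10.8 CPM in knockout S595, S598 and S599, against 33.7, 43.7 and 47.8 CPM in control S591, S592 and S594. Every knockout value was below every control value by a wide gap. The means were 9.67 ± 2.69 and 41.7 ± 7.24 CPM (SD, n = 3 each), which makes the control mean 4.31 times the knockout mean. Its log2 fold change of −2.02 (standard error 0.23) had a 95% interval from −2.55 to −1.49 (limma adjusted p = 0.0644). It rests on 68 to 76 reads in each knockout and 189 to 385 reads in each control library. By unadjusted p, Ccl2 ranked 5 among all genes.

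Ccl7, a second CCR2 ligand encoded beside Ccl2, read 9.97, 4.29 and 6.06 CPM in knockout S595, S598 and S599, against 29.4, 26.1 and 28.4 CPM in the control libraries S591, S592 and S594. The groups were apart, and the control values were close to each other. The means were 6.77 ± 2.91 CPM in knockout and 28.0 ± 1.71 CPM in control arches (SD, n = 3 each). The log2 fold change of Ccl7 was −1.96 (standard error 0.26, limma adjusted p = 0.101, rank 11 of all genes). The ratio of Ccl2 to Ccl7 ran from 1.17 to 1.78 in the knockout and from 1.15 to 1.68 in the control libraries, and these ranges overlapped.

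Ccl8, a ligand gene of the same chromosomal group whose mouse product acts through CCR8, was less separated. It read 35.2, 24.5 and 25.1 CPM in the knockout libraries S595, S598 and S599, against 32.4, 52.1 and 79.7 CPM in the control libraries S591, S592 and S594. Control S591 lay below knockout S595, so the groups overlapped. The log2 fold change was −0.86 (standard error 0.31, limma adjusted p = 0.185), and an exact permutation test, two-sided, gave p = 0.2. With 3 libraries a group that test cannot go below 0.1, the value it gave for the 6 genes whose groups were apart. The ratio of Ccl8 to Ccl2 within a library was 3.03, 3.72 and 2.33 in knockout S595, S598 and S599, against 0.963, 1.19 and 1.67 in control S591, S592 and S594. Every knockout ratio was above every control ratio, a difference that was described and not tested.

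Ccl9 and Ccl6, CCR1 ligands that are made by myeloid cells in mice, had the highest CPM of the ligand genes. CPM is not corrected for transcript length, and per kilobase Ccl8 was above Ccl9 in both groups. Ccl9 read 78.6, 60.7 and 69.4 CPM in the knockout, against 113, 156 and 235 CPM in the control libraries, in the same library order. The groups did not overlap, and the spread was larger among the controls. The log2 fold change was −1.20 (standard error 0.25, limma adjusted p = 0.107). Ccl6 read 147, 149 and 187 CPM in knockout S595, S598 and S599, against 244, 315 and 589 CPM in control S591, S592 and S594, again with no overlap. Its log2 fold change was −1.15 (standard error 0.30, limma adjusted p = 0.121). The ratio of Ccl6 to Ccl9 lay between 1.87 and 2.70 in the knockout and between 2.03 and 2.51 in the control libraries.

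Ccl5, a ligand made by T cells and activated myeloid cells, was the 1 gene of the 8 with no separation and few reads. It read 2.05, 2.65 and 2.60 CPM in knockout S595, S598 and S599, against 0.977, 3.02 and 5.51 CPM in control S591, S592 and S594, which is 5 to 44 reads per library. The knockout values lay inside the range of the controls. The log2 fold change was −0.12 with a 95% interval from −1.07 to 0.83 (limma adjusted p = 0.897), and without control S594 it was 0.28. Markers of T and NK cells, which also make Ccl5, had 11 of 14 genes in the table and summed to 30.8, 128 and 80.3 CPM in knockout S595, S598 and S599, against 42.9, 34.9 and 40.2 CPM in the control libraries. Knockout S598 and S599 also held 23.5 and 7.16 CPM of Dntt, a polymerase gene of immature lymphocytes, against 1.29 CPM in knockout S595 and 0.872 to 1.69 CPM in the controls. The part of these cells in the Ccl5 values was not tested.

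The receptor genes were lower by smaller amounts than Ccl2 and Ccl7, with wide intervals. This did not hold for every ligand gene, since the fold change of Ccr1 was larger than those of Ccl9, Ccl6, Ccl8 and Ccl5. Ccr1 read 7.53, 8.73 and 15.2 CPM in knockout S595, S598 and S599, against 19.5, 27.7 and 39.9 CPM in control S591, S592 and S594. The groups were apart, and knockout S599 came nearest to the controls. The log2 fold change was −1.39 with a 95% interval from −2.12 to −0.66 (limma adjusted p = 0.112). Ccr2 read 29.1, 53.7 and 62.2 CPM in the knockout libraries, against 70.8, 62.6 and 104 CPM in the control libraries, in the same order. These groups were apart by less than 1 CPM, between knockout S599 and control S592. The log2 fold change of Ccr2 was −0.73 with a 95% interval from −1.42 to −0.04 (limma adjusted p = 0.228). It was −0.41 without knockout S595, the library with the lowest value.

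Set beside its receptor, Ccl2 was lower in proportion. The ratio of Ccl2 to Ccr2 CPM in a library was 0.399, 0.123 and 0.173 in knockout S595, S598 and S599, against 0.476, 0.698 and 0.461 in control S591, S592 and S594. The groups did not overlap, although knockout S595 was close to the controls. On the log2(value + 1) scale the mean difference between Ccl2 and Ccr2 was 1.29 lower in the knockout, a description with no test. The same ratio for Ccl7 overlapped between the groups, because knockout S595 reached 0.342 and control S594 stood at 0.274. The ratio of Ccl9 to Ccr1 ran from 4.58 to 10.4 in the knockout and from 5.62 to 5.87 in the control libraries.

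Levels were compared between genes per kilobase of the principal transcript, as mean CPM per kilobase. In the knockout arches the order was Ccl6 at 112 ± 15.9, Ccl8 at 55.4 ± 11.8, Ccl9 at 23.1 ± 2.98 and Ccl2 at 11.9 ± 3.31 (SD, n = 3 each), followed by Ccl7, Ccr2, Ccl5 and Ccr1. In the control arches it was Ccl6 at 266 ± 127, Ccl8 at 107 ± 46.5, Ccl9 at 55.8 ± 20.6 and Ccl2 at 51.3 ± 8.91, followed by Ccl7, Ccr2, Ccr1 and Ccl5. Neighbours whose library values overlapped in the knockout arches were Ccl2 with Ccl7, Ccl7 with Ccr2, and Ccl5 with Ccr1. In the control arches Ccl8 overlapped with Ccl9, Ccl9 with Ccl2, Ccr2 with Ccr1, and Ccr1 with Ccl5. Ccl9 was above Ccl2 per kilobase in 3 of 3 knockout libraries and in 1 of 3 control libraries.

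Transcripts of macrophages, cells that can carry these receptors and make several of these ligands, were lower in the same libraries. Of 20 macrophage markers, 16 were lower and 0 higher by limma at an unadjusted p under 0.05, against 12.0% and 8.04% of all genes. The adjusted threshold was passed by 0 of the 20, and the median log2 fold change was −1.01. Their summed level was 3560, 2792 and 6257 CPM in knockout S595, S598 and S599, against 6305, 8295 and 10219 CPM in control S591, S592 and S594, and no marker was without reads. The myeloid integrin gene Itgam stood at 49.8 ± 5.06 and 159 ± 63.2 CPM in knockout and control arches, and the adaptor gene Tyrobp at 75.1 ± 20.9 and 160 ± 24.3 CPM (SD, n = 3 each). Of 7 classical monocyte markers, 1 (Ms4a4c) was lower by limma at an unadjusted p under 0.05, near the 12.0% of all genes. The median log2 fold change of the 7 was −0.66, with Ms4a4c at −1.09 and Chil3 at −1.19. Their sum ran from 363 to 563 CPM in the knockout and from 393 to 1059 CPM in the control libraries, an overlap.

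**Figure D2:**
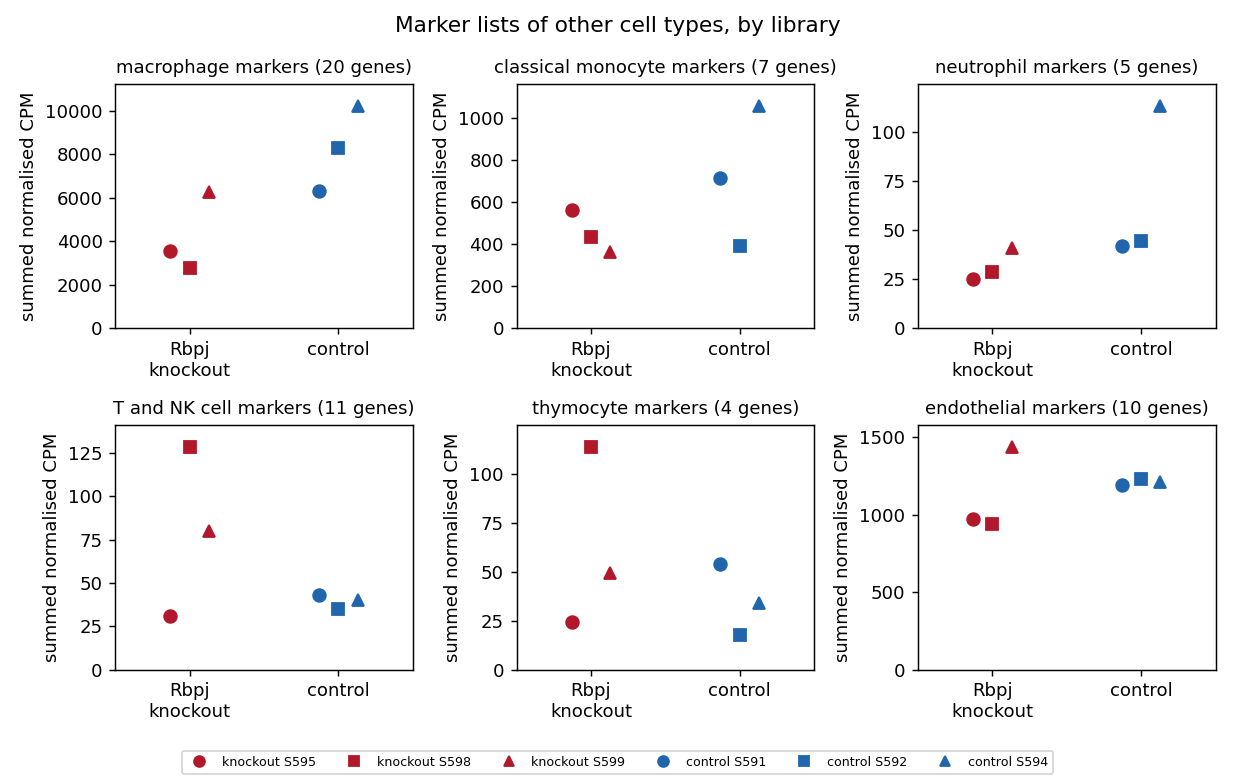
Summed normalised CPM of marker genes for 6 cell types in each library, knockout in red to the left and control in blue to the right. Macrophage sums were 2792 to 6257 CPM in the knockout and 6305 to 10219 CPM in the control libraries, and T and NK cell markers stood highest in knockout S598 and S599.

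Each gene was therefore also set against the mean log2(value + 1) of the 20 macrophage markers in its own library. Relative to that mean, Ccl2 stood at −2.41, −2.80 and −2.94 in knockout S595, S598 and S599, against −1.66, −1.59 and −1.69 in the control libraries. The groups did not overlap, the controls lay close together, and the difference of means was −1.07. Ccl7 stood at −2.61, −3.32 and −3.68 in the knockout, against −1.85, −2.31 and −2.42 in the control libraries, also without overlap and with a difference of −1.01. For Ccr1 the difference was −0.43, and the groups were apart by less than 0.1. The groups overlapped for the other 5 genes, with differences of −0.25 for Ccl9, −0.20 for Ccl6, 0.10 for Ccl8, 0.22 for Ccr2 and 0.83 for Ccl5. Which genes stayed apart depended in part on the markers used. Against the mean of the 7 classical monocyte markers, Ccl2 and Ccl7 were again without overlap, with differences of −1.35 and −1.29. There Ccl9 was also without overlap, at −0.53, whereas Ccr1 overlapped, at −0.72, as did Ccl5, Ccl6, Ccl8 and Ccr2. All of these are differences of log2 values with no test, and their dependence on cell number was not tested.

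**Figure D3:**
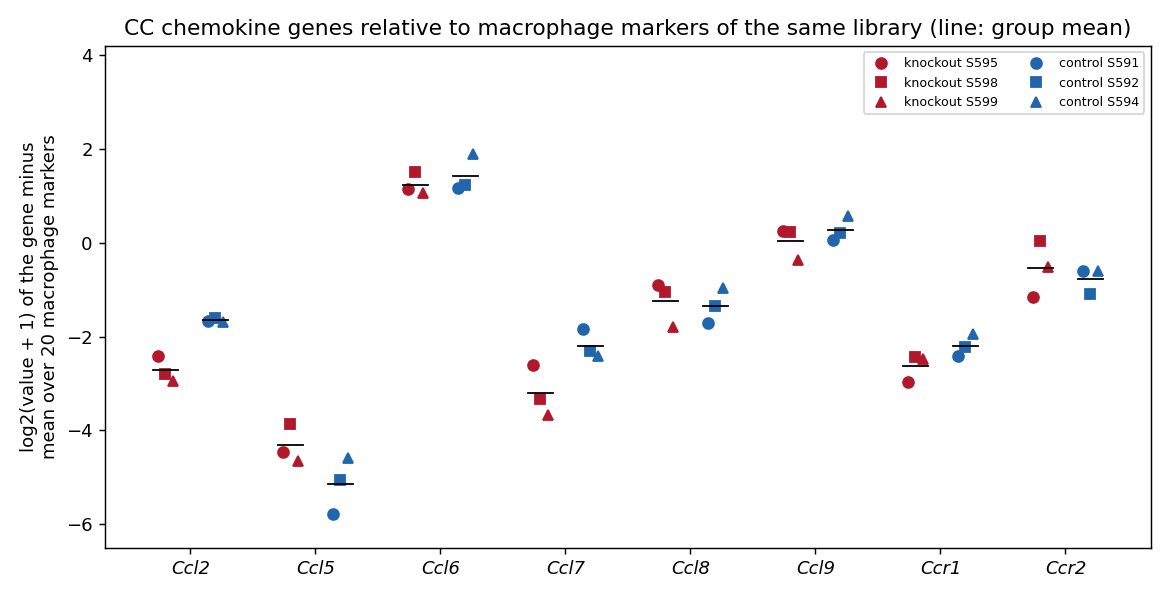
Log2(value + 1) of each gene minus the mean over 20 macrophage markers of the same library (vertical axis, log2 units), with knockout libraries in red to the left of control libraries in blue and group means as lines. Ccl2, Ccl7 and Ccr1 were lower in all 3 knockout libraries, by group means of 1.07, 1.01 and 0.43, and the groups overlapped for the other genes.

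Of the single libraries, knockout S599 had the highest macrophage sum of its group and control S591 the lowest of its own, with a ratio of 0.992 between them. The 2 were close by this sum only. The mean log2(value + 1) of the same 20 markers was lower in S599, at 6.49, than in S591, at 6.77. These 2 libraries are described here and nothing was tested on them. Ccl2 in S599 was 0.320 of its value in S591, and Ccl7 was 0.206. Ccl9 was 0.617, Ccl6 0.770, Ccl8 0.774, Ccr1 0.780 and Ccr2 0.879 of the value in S591. Ccl5, with 16 reads in S599 and 5 in S591, was 2.66 times as high.

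In the rest of the family, log2 fold changes had both signs. Of 15 further CC ligand genes, 9 were in the table, with 5 negative and 4 positive log2 fold changes and a median of −0.32. By limma at an unadjusted p under 0.05, 4 were lower and 1 higher, against 12.0% and 8.04% of all genes. Of the 9, 0 passed the adjusted threshold. Ccl4, a chemokine gene of activated macrophages and T cells, read 0.685, 1.01 and 1.81 CPM in knockout S595, S598 and S599, against 4.18, 4.36 and 6.87 CPM in the control libraries (log2 fold change −1.51, limma adjusted p = 0.107). Its companion Ccl3 had a log2 fold change of −1.24, Ccl12, a mouse CCR2 ligand, −1.15, and the CCR7 ligand gene Ccl19 −1.10. The groups overlapped for Ccl19, with knockout S595 at 22.3 and control S592 at 21.9 CPM, and were apart for Ccl3 and Ccl12. Ccl24, an eosinophil chemokine bound by CCR3, was higher (log2 fold change 1.00, limma adjusted p = 0.174). It read 3.88, 2.27 and 4.33 CPM in the knockout, against 2.22, 1.27 and 0.434 CPM in the control libraries. Reads per library were few, at 3 to 27 for Ccl24 and 4 to 55 for Ccl4. Ccl11, another eosinophil chemokine gene, read 22.1, 22.0 and 27.3 CPM in the knockout, against 23.7, 17.1 and 15.8 CPM in the control libraries, and these overlapped. The log2 fold changes of Ccl22, Ccl25 and Ccl27a were −0.32, 0.19 and 0.45, with overlapping groups, and the family copies of Ccl27a make its reads uncertain.

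Along chromosome 11 in RefSeq (GRCm38.p6), the listed genes come in the order Ccl2, Ccl7, Ccl11, Ccl12 and Ccl8, and then, farther on, Ccl5, Ccl9, Ccl6, Ccl3 and Ccl4. In the first group Ccl11, at a log2 fold change of 0.33, lies between Ccl7 at −1.96 and Ccl12 at −1.15. In the second, Ccl5 at −0.12 is followed by 4 genes between −1.51 and −1.15. Ccr1 and Ccr2 both lie on chromosome 9, with log2 fold changes of −1.39 and −0.73.

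Among 8 further CC receptor genes, 4 were in the table, with 1 lower (Ccr7) and 0 higher by limma at an unadjusted p under 0.05. Over all genes, 12.0% were lower and 8.04% higher. Of the 4, 0 passed the adjusted threshold, and their median log2 fold change was −0.12. The lymphoid homing receptor gene Ccr7 had a log2 fold change of −0.88, the CCR-like receptor gene Ccrl2 −0.24 and Ccr10 0.00. Ccr9, a receptor of thymocytes and gut-homing T cells, read 0.837, 17.2 and 4.80 CPM in the knockout, against 1.15, 1.01 and 1.05 CPM in the control libraries, and was high in the libraries with the most Dntt. All 4 atypical receptor genes, whose products bind chemokines without Gi signalling, were present. Of these, 2 were lower by limma at an unadjusted p under 0.05, against 12.0% of all genes, and the median of the 4 was −0.39. Ackr3 stood at 109 ± 5.35 and 133 ± 5.73 CPM in knockout and control arches, and Ackr1, which binds chemokines on venules and red cells, at 2.16 ± 0.716 and 3.96 ± 0.776 CPM (SD, n = 3 each). Ackr2 and Ackr4 had log2 fold changes of −0.48 and 0.38 with overlapping groups.

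**Figure D4:**
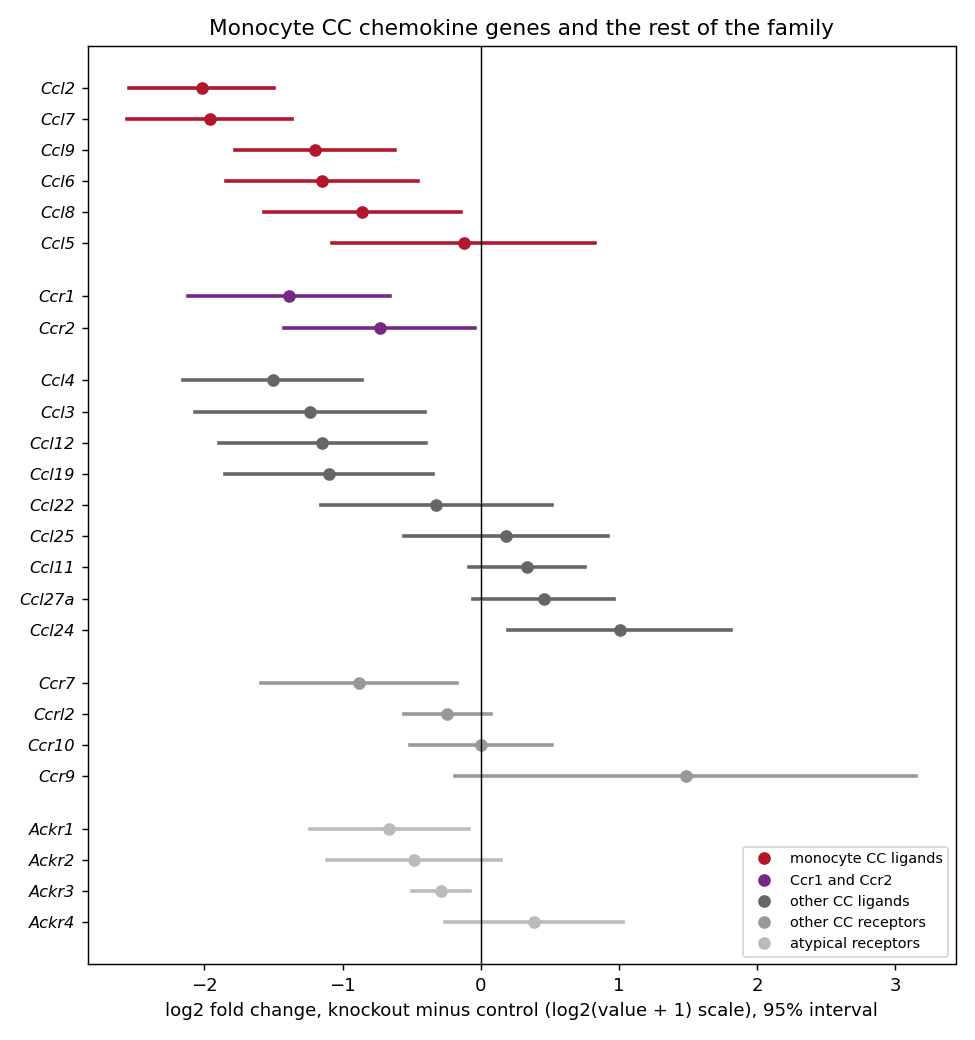
Log2 fold change, knockout minus control, with its 95% interval (horizontal axis) for the 8 genes and for the other CC ligand, CC receptor and atypical receptor genes of the table. The intervals of Ccl2 and Ccl7 lie lowest among the 8 genes, between −2.56 and −1.37, while that of Ccl24 lies above 0.

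Downstream of the receptors, 8 of 20 signalling genes were lower and 0 higher by limma at an unadjusted p under 0.05. Over all genes, 12.0% were lower and 8.04% higher, and 0 of the 20 passed the adjusted threshold. Their median log2 fold change was −0.24. The arrestin gene Arrb2 stood at 32.1 ± 2.86 and 66.6 ± 17.2 CPM in knockout and control arches (SD, n = 3 each, limma adjusted p = 0.107). Dock2, the Rac activator of leukocytes, stood at 41.1 ± 9.93 and 87.8 ± 18.0 CPM in knockout and control arches (SD, n = 3 each, limma adjusted p = 0.107). Both are expressed in leukocytes, and the share of leukocytes in these values was not tested.

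Other marker lists moved in both directions beside these genes. Neutrophil markers, from cells that carry CCR1, had a median log2 fold change of −1.09 over 5 genes, with Cxcr2 at −1.38 (limma adjusted p = 0.143) and Csf3r close to −1 (0.162). Fibroblast markers, from cells that can make Ccl2, had a median of −0.50 over 7 genes, and Lum and Col3a1 had −1.44 and −0.82. The median was −0.05 over 10 endothelial markers (Vwf −0.38, Tie1 −0.34), and their sum was 944 to 1437 CPM in the knockout and 1192 to 1232 CPM in the control libraries. Smooth muscle markers had a median of 0.63 over 7 genes (Lmod1 0.67, Smtn 0.63). The medians were 0.51 for T and NK cell (Cd28 0.77, Lck 1.29) and 1.39 for thymocyte markers (Dntt 1.74, Rag1 1.49). Thymocyte markers summed to 24.3, 113 and 49.1 CPM in knockout S595, S598 and S599. Control S591, S592 and S594 held 53.7, 17.4 and 33.8 CPM, so these sums overlapped. Medians of 0.06 and −0.30 were found for B cell (Cd22 −0.82, Cd79a 0.37) and adipocyte markers (Cfd −0.61, Ucp1 −0.53). Airway epithelium markers had a median of 3.17 over 3 genes, of which Scgb1a1 and Bpifa1 passed the adjusted threshold (limma adjusted p = 0.0317 each), with sums of 64.1 to 86.4 CPM in the knockout and 4.89 to 16.5 CPM in the control libraries. How far each of these tissues shaped the chemokine values was not tested.

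Across the 6 libraries, which share the genotype difference, Ccl2 followed Ccl7 (Pearson r = 0.974), Ccl9 (0.941), Ccr1 (0.898) and Ccl6 (0.876) closely and Ccr2 (0.628) and Ccl5 (0.229) less so. These correlations of log2(value + 1) are descriptions of 6 points. Ccr2 was nearest to Ccr1 (0.865) and Ccl6 (0.820). Among 11723 genes with a mean of at least 5 CPM, those most like Ccl2 over the 6 libraries were Tsg101 (0.997), Ftsj3 (0.996) and Irgm1 (0.995), whose own log2 fold changes were −0.29, −0.26 and −0.52. Those most like Ccr2 were Gse1 (0.997), Fam57a (0.991) and Tmcc1 (0.991).

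The effect of single libraries was examined for each gene. With 1 library left out, the log2 fold change of Ccl2 ran from −2.16 (without control S591) to −1.79 (without knockout S598) and that of Ccl7 from −2.24 (without knockout S595) to −1.72 (without knockout S598). Ccl9 ran from −1.45 to −0.93, Ccl6 from −1.42 to −0.79, Ccl8 from −1.18 to −0.54 and Ccr1 from −1.66 to −1.14, each nearest to 0 without control S594. Ccr2 ran from −0.95 without knockout S599 to −0.41 without knockout S595. With knockout S598 and S599 both left out, the single knockout library S595 was taken to have the spread of the controls. The log2 fold changes were then −1.74 for Ccl2, −1.40 for Ccl7, −1.76 for Ccr1, −1.37 for Ccr2, −1.27 for Ccl6, −1.02 for Ccl9, −0.53 for Ccl8 and −0.29 for Ccl5.

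**Figure D5:**
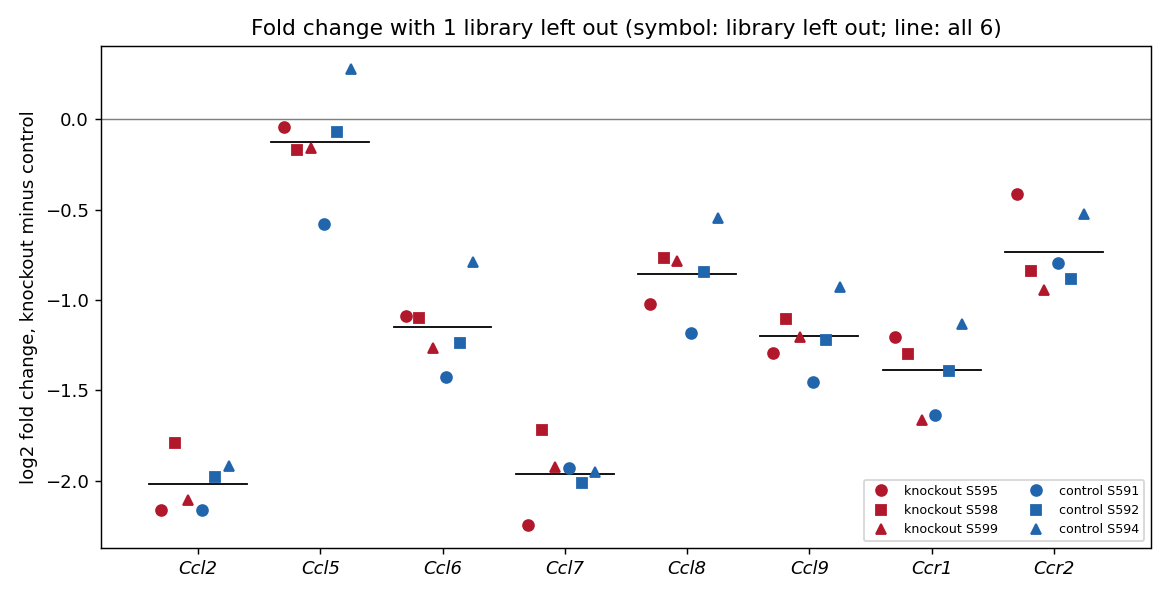
Log2 fold change, knockout minus control (vertical axis), of the 8 genes with 1 library left out, where the symbol shows the library left out and the line the value from all 6. Only Ccl5 crosses 0, at 0.28 without control S594.

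The number of the 8 genes that passed the adjusted threshold depended on the test and on control S591. By limma, 0 of the 8 passed with all 6 libraries and 7 were lower at an unadjusted p under 0.05, and the edgeR quasi-likelihood test and limma-voom on the recovered reads gave the same counts for the 8, with 12.1% and 12.4% of all genes lower at an unadjusted p under 0.05 and 0% at the adjusted threshold. DESeq2 called 5 lower (Ccl2, Ccl6, Ccl7, Ccl9 and Ccr1), with Ccl2 at an adjusted p of 2.57e-11, beside 4.29% of all genes it tested. Limma with array weights called the same 5, beside 5.06% of all genes. Without control S591, limma called 6 of the 8, the same 5 and Ccl8, beside 3.29% of all genes. Without knockout S595 it called Ccl7 alone of the 8 (adjusted p = 0.0320), beside 0.0420% of all genes. Ccl5 and Ccr2 were called under none of these settings.

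Promoter windows of 300 bases, from 250 before to 50 after the annotated start, were read from RefSeq (GRCm38.p6) for the 5 of the 8 genes that the table holds, which are Ccl6, Ccl8, Ccl9, Ccr1 and Ccr2. They were searched on both strands for the RBPJ core TGGGAA, the NF-kappaB motif (GGGA and TTCC with NN between them), the AP-1 motif TGANTCA and the C/EBP motif TTGCNNAA. An RBPJ core can overlap an NF-kappaB match. The RBPJ core was present in Ccl8 and Ccl9 and in 25.6% of all 32851 windows, and the AP-1 motif in Ccl9 and in 7.81% of windows. The other motifs, found in 1.47% (NF-kappaB) and 10.8% (C/EBP) of windows, were in none of the 5. The windows of Ccl8 and Ccl9 are shown because they hold letters of the factor whose gene was deleted, and the capitals mark the RBPJ core, read on the opposite strand as TTCCCA, and the AP-1 match in Ccl9.
Ccl8, chr11:82114935-82115234, + strand: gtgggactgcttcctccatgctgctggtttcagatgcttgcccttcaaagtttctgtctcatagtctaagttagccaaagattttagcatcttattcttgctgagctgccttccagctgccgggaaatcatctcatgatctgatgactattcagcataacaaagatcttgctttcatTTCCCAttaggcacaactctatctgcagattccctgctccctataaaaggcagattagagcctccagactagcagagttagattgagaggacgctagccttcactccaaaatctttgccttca
Ccl9, chr11:83578587-83578886, - strand: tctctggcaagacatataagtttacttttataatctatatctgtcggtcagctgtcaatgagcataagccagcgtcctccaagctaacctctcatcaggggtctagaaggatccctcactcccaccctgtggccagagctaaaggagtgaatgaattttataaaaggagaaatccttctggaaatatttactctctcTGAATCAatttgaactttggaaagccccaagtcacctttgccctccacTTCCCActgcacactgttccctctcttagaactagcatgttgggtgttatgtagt
In Ccl8 the core lies from 73 to 68 bases before the start, and in Ccl9 it reaches the start itself, with the AP-1 match 53 to 47 bases before it. A match describes these letters only, and binding was not measured.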

How the data were processed

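PolyA RNA libraries of 3 knockout and 3 control aortic arches were compared, grouped by genotype from the labels. Columns of the table name the genotype and a library (S591, for example), without the replicate numbers of the titles. The authors deposited a normalised signal on a linear scale for 14298 genes. Checked on the values, it equals (reads + 0.5) in CPM of a TMM-scaled library size. Undoing this gave whole reads (within 0.01) for 100% of values. Per the submitters' processing notes, CASAVA 1.8, cutadapt 1.6.1, RSEM 1.16, Bowtie 0.12.7, limma, edgeR and build NCBIM37 were used, without roles. For the annotation and the counting strand, no statement was found (not given in the sources used here). Symbols were matched by Ensembl identifier for 13828 identifiers and not for 470. Sequences and transcript lengths come from GRCm38 annotations, another build, and were used for names, order, lengths and sequence only.

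The test was limma 3.58.1 (R 4.3.3) on log2(value + 1) with a variance trend and genotype as the 1 factor, two-sided, Benjamini-Hochberg adjusted over all genes. Genes needed 1 CPM in 3 libraries, which removed 0. Alternatives were edgeR 4.0.16, DESeq2 1.42.0 and limma-voom on the recovered reads (edgeR called 0 genes in each direction, with 1737 lower and 1162 higher at an unadjusted p under 0.05), other pseudocounts, filters, scalings and weights, and libraries left out. The 8 genes, gene lists, motifs and tests were chosen with earlier results of these data known. The genes named were the 8, Rbpj, the other CC family genes of the table except 1 that is not reported here, the 2 of each remaining list with the smallest p, and the 3 genes most correlated with Ccl2 and with Ccr2. The design text gives 3 mice per genotype and ties no library to a mouse, so p-values measure the spread between these libraries. The fit was first tested on simulated data.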

Additional observations from a re-analysis of the deposited data

How the results depend on the processing

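Of the 8 genes, 7 kept a negative log2 fold change under all 19 alternatives. Among these, leaving out the filter or the variance trend, or asking for a minimum mean of 5 CPM, cannot change a log2 fold change. Ccl5 reversed to 0.28 without control S594, with −0.58 without control S591 at the other end (it has no value under a minimum mean of 5 CPM). The count of the 8 called lower, 0 with all libraries, was 5 with array weights and 5 by DESeq2, and with 1 library left out ran from 0 to 6. Over all genes, 3 were called higher and 0 lower. The higher count was 0 with a pseudocount of 0.5 or 0.1, with a minimum mean of 5, by edgeR with either scaling, by limma-voom and without knockout S598 and S599, 1 without a variance trend, 288 (723 lower) with array weights and 287 (613 lower) by DESeq2. With 1 library left out, the higher count ran from 0 to 201 and the lower count from 0 to 470. The cause was not tested. Scaling moved the share of higher genes among those at an unadjusted p under 0.05 from 40.2% to 51.9% by quantile normalisation and 56.2% by median centring, and the median of all genes from −0.02 to 0.03 and 0.05. Ccl5 rests on 5 to 44 reads per library, and counting error and the spread between libraries were not separated for it. No paired analysis was possible because the columns carry no replicate number from the titles.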
